A study of Mus musculus with 6 samples.

Results

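The levels of 10 immediate early genes are described in aorta of mice with and without eNOS, the endothelial nitric oxide synthase. That enzyme, the product of Nos3, gives the endothelium its supply of nitric oxide, which relaxes the smooth muscle beneath. The genes are Fos, Fosb, Jun, Junb, Egr1, Egr2, Egr3, Atf3, Nr4a1 and Ier2. They were chosen by symbol, each through the probe sets whose annotation gives that symbol alone, and all 10 were found among 22184 genes with such a probe set and among the 18008 genes bright enough to be tested. Each had 1 probe set, so no second probe set was at hand as a check. Aortas of 3 eNOS-deficient mouse samples (numbered 11, 15 and 19 in their titles) were set against aortas of 3 wild-type samples of matched age (numbered 2, 3 and 5), with 1 Affymetrix array per sample. Strain, sex, age, targeted allele and time of collection are not stated by the labels. Nor is it said whether each sample is a separate animal, so every p-value below reflects the spread among these 6 samples, which may be technical. Whole aorta holds several cell types, and in such bulk RNA fewer cells of a type and less RNA per cell cannot be told apart.

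Immediate early genes are switched on within minutes of a stimulus such as a growth factor, stretch, injury or the handling of tissue, from transcription factors already present in the cell, and their mRNAs are short-lived. Growth factor and calcium signals reach them through MAP kinases, serum response factor with its ETS partners, and the cyclic AMP response element binding protein. Their products, mostly transcription factors, then switch on slower genes of growth, matrix turnover and inflammation. In the vessel wall they are known for their rise in smooth muscle and endothelium after injury or a change in flow.

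Promoter letters are shown for Fos, Nr4a1 and Egr2. Fos and Nr4a1 were among the members that varied most between arrays, and Egr2 is the member whose genotypes did not overlap. All are from RefSeq, build GRCm38.p6, plus strand, 5′ to 3′, and 7 of the 10 members are in that table. In Fos (chr12:85473640-85473889), the 250 bases before the start, capitals mark TGACG, 1 arm of the palindromic cyclic AMP response element. In Nr4a1 (chr15:101266596-101266845), also 250 bases, capitals mark the same arm on the other strand and 1 EGR site (GCGNGGGCG, read on the other strand). In Egr2 (chr10:67537787-67537816), 30 bases around it, capitals mark a CArG box, the letters bound by serum response factor. These 30 bases lie before the start of some Egr2 transcripts in the table and after the start of another.
Fos: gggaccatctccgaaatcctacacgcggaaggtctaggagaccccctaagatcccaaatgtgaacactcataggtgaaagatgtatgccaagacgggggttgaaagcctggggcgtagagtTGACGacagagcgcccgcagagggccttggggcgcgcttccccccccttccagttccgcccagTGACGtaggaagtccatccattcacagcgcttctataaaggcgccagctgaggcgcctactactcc
Nr4a1: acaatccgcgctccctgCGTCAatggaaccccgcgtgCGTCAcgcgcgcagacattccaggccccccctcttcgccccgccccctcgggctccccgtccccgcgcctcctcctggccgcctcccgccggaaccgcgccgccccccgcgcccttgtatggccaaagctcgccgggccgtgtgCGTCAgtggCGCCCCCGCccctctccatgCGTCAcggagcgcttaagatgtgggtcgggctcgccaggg
Egr2: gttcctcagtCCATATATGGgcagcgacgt

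Motifs were searched on both strands of the 250 bases before each start. The single arm TGACG was found in 6 of the 7 members in the table (Fos, Fosb, Junb, Egr2, Atf3 and Nr4a1), and in 17.8% of all 32851 windows. The full element TGACGTCA, which holds that arm on both strands, was in none of the members' windows and in 1.55% of all. The EGR site GCGNGGGCG was in Fosb and Nr4a1 and in 4.7% of all windows. The ETS letters CCGGAA were in Egr2 and Nr4a1 and in 12% of all, and the AP-1 site TGANTCA was in none of the members' windows and in 6.75% of all. The CArG box was in Egr2 and in 1.47% of all windows. Letters farther than 250 bases before a start were not searched, so a motif missing here may lie beyond the window. Egr2 has 5 windows in the table, several of which overlap, so it had more chances of a match than the others. A match is a description of letters, not a measured site.

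No immediate early gene passed the test for a difference between genotypes. With limma over 18008 genes, 0 of the 10 had an adjusted p under 0.05 (over all genes tested, 0.0278%), and 0 had an unadjusted p under 0.05 (over all genes, 11.6%). Differences, given throughout as eNOS-deficient minus wild type on the log2 scale, were positive for 8 and negative for 2 (over all genes tested, 56.6% were positive), with a median of 0.15 beside 0.036 over all genes. Egr2 was the only member whose 3 eNOS-deficient arrays lay wholly to one side of the 3 wild-type arrays, 1 of 10 beside 19.5% of all genes. The 95% intervals of all 10 differences held 0. For 4 members (Fos, Jun, Egr1 and Nr4a1) the interval also held a rise of 2-fold, so a change of that size could not be told from none with 3 arrays per genotype.

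**Figure D1:**
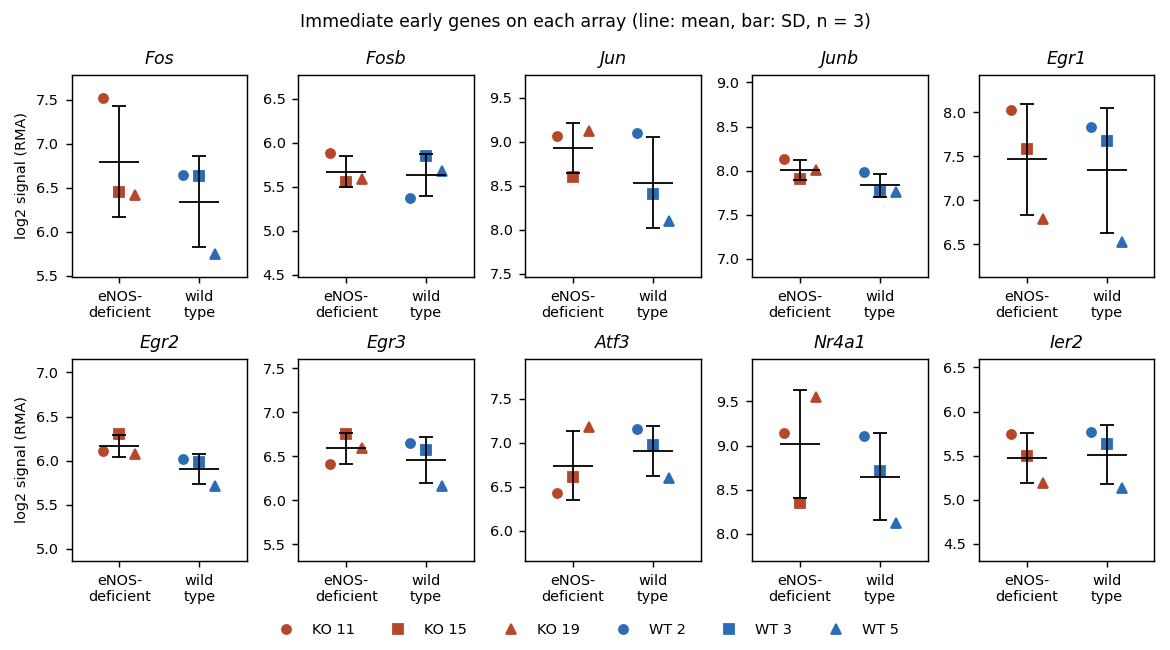
Log2 signal of each immediate early gene on each array, with eNOS-deficient arrays (KO) in red and wild-type arrays (WT) in blue. Horizontal lines are means and bars are SD (n = 3); every panel spans the same log2 height. Wild type 5 is the lowest of the 6 arrays in 7 of 10 panels, and the genotypes are apart only for Egr2.

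Fos and Fosb encode the Fos side of activator protein 1 (AP-1), a pair of leucine-zipper proteins that binds DNA as a Fos-Jun or Jun-Jun dimer. Fos measured 7.52, 6.45 and 6.41 log2 on eNOS-deficient 11, 15 and 19, and 6.65, 6.63 and 5.75 on wild type 2, 3 and 5. One array of each genotype stood away from its pair, eNOS-deficient 11 on the high side and wild type 5 on the low side, and the other 4 arrays lay between them. The means were 6.80 ± 0.63 (SD, n = 3) and 6.34 ± 0.52, a difference of 0.45 (standard error 0.36, 95% interval -0.40 to 1.31, limma adjusted p = 0.672). As a fold this is 1.37, with an interval of 0.758 to 2.47. Without eNOS-deficient 11 the difference was 0.090, and without wild type 5 it was 0.16. Without both arrays, a setting chosen after seeing the data, it was -0.21.

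Fosb, a second Fos protein with a strong activation domain, varied less. Its values were 5.88, 5.56 and 5.58 on the eNOS-deficient arrays and 5.37, 5.85 and 5.68 on the wild-type arrays, with each genotype's range inside or across the other's. The difference was 0.039 (standard error 0.17, interval -0.35 to 0.43, limma adjusted p = 0.952). Fosb was the only member with its lowest value on wild type 2, and on wild type 5 it lay close to its own mean of the 6 arrays (0.030 above it), where Fos lay 0.82 log2 under its mean.

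Jun and Junb are the Jun side of AP-1. Jun, the founding member and the one that drives growth, measured 9.07, 8.60 and 9.12 on the eNOS-deficient arrays and 9.10, 8.41 and 8.10 on the wild-type arrays. The eNOS-deficient arrays all lay above wild type 3 and 5, while wild type 2 lay between the higher pair of them. The means were 8.93 ± 0.29 and 8.54 ± 0.51, and the difference was 0.39 (standard error 0.27, interval -0.24 to 1.03, limma adjusted p = 0.619). Without wild type 2 the difference was 0.68, with an unadjusted p of 0.0175 and an adjusted p of 0.602 in limma. In that fit 8.07% of all genes had an unadjusted p under 0.05. No other alternative gave any member an unadjusted p under 0.05. Without wild type 5 the difference of Jun was 0.18. Its adjusted p over the alternatives ran from 0.515 to 0.927.

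Junb, which can hold back the action of Jun, had the smallest spread of the members. It measured 8.13, 7.90 and 8.01 on the eNOS-deficient arrays and 7.99, 7.75 and 7.76 on the wild-type arrays. Wild type 2 again lay among the eNOS-deficient arrays, and wild type 3 and 5 lay below all of them. The difference was 0.18 (standard error 0.13, limma adjusted p = 0.637), which as a fold is 1.13 with an interval of 0.919 to 1.39. A change of 1.5-fold in either direction lies outside that interval.

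Atf3 encodes a stress-induced leucine-zipper protein that pairs with Jun proteins and often represses. It measured 6.43, 6.61 and 7.18 on the eNOS-deficient arrays and 7.16, 6.97 and 6.60 on the wild-type arrays. Its values on eNOS-deficient 11 and 15 and on wild type 5 were low, and those on eNOS-deficient 19 and wild type 2 high, so that both genotypes covered nearly the same range. The difference was -0.17 (standard error 0.23, interval -0.71 to 0.37, limma adjusted p = 0.824). Atf3 was the only member with its lowest value on eNOS-deficient 11, the array on which Fos, Fosb, Junb and Egr1 were highest.

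Egr1, Egr2 and Egr3 are zinc-finger factors that bind the same GC-rich site. Egr1, known in vessels for its rise after injury and shear, had the widest spread of all the members within a genotype. It measured 8.03, 7.58 and 6.79 on the eNOS-deficient arrays and 7.83, 7.67 and 6.53 on the wild-type arrays. In each genotype 1 array, eNOS-deficient 19 and wild type 5, lay well under the other pair, and the genotypes overlapped over most of their range. The means were 7.47 ± 0.63 and 7.34 ± 0.71, and the difference was 0.12 (standard error 0.42, interval -0.86 to 1.11, limma adjusted p = 0.938). Without wild type 5 it was -0.28, and without eNOS-deficient 11 it was -0.16, so the sign of this difference rested on single arrays.

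Egr2 is best known from Schwann cells and lymphocytes and is also induced by growth factors. It measured 6.11, 6.30 and 6.08 on the eNOS-deficient arrays and 6.02, 5.98 and 5.71 on the wild-type arrays. The lowest eNOS-deficient array stood 0.062 log2 above the highest wild-type array. The means were 6.16 ± 0.12 and 5.90 ± 0.17, a difference of 0.26 (standard error 0.14, interval -0.059 to 0.58), with an unadjusted p of 0.0961 and an adjusted p of 0.505 in limma. The two-sided exact permutation p was 0.1, the smallest that 3 arrays against 3 can give. As a fold the difference was 1.20, and it was positive under all 16 alternatives run, from 0.10 to 0.33.

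Egr3, which calcium signals induce in several cell types, measured 6.42, 6.76 and 6.59 on the eNOS-deficient arrays and 6.66, 6.57 and 6.16 on the wild-type arrays. Apart from wild type 5 the arrays of both genotypes were mixed. The difference was 0.13 (standard error 0.17, interval -0.27 to 0.53, limma adjusted p = 0.819), and without wild type 5 it was -0.022. Egr2 and Egr3 shared eNOS-deficient 15 as their highest array, whereas Egr1 was highest on eNOS-deficient 11.

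Nr4a1 encodes the orphan nuclear receptor Nur77, which is induced by growth factors and inflammatory signals and restrains smooth muscle growth. It measured 9.15, 8.35 and 9.55 on the eNOS-deficient arrays and 9.11, 8.71 and 8.12 on the wild-type arrays. The eNOS-deficient arrays spanned 1.20 log2 and held most of the wild-type range within their own. The means were 9.02 ± 0.61 and 8.65 ± 0.50, and the difference was 0.37 (standard error 0.35, interval -0.45 to 1.20, limma adjusted p = 0.731). Without wild type 5 the difference was 0.11, without eNOS-deficient 19 it was 0.10, and without eNOS-deficient 15 it was 0.70.

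Ier2 encodes a short nuclear protein that is induced with Fos and Jun. It measured 5.75, 5.49 and 5.18 on the eNOS-deficient arrays and 5.77, 5.63 and 5.13 on the wild-type arrays. The genotypes covered the same range, with eNOS-deficient 19 and wild type 5 low, as for Egr1. The difference was -0.038 (standard error 0.21, interval -0.54 to 0.46, limma adjusted p = 0.965).

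**Figure D2:**
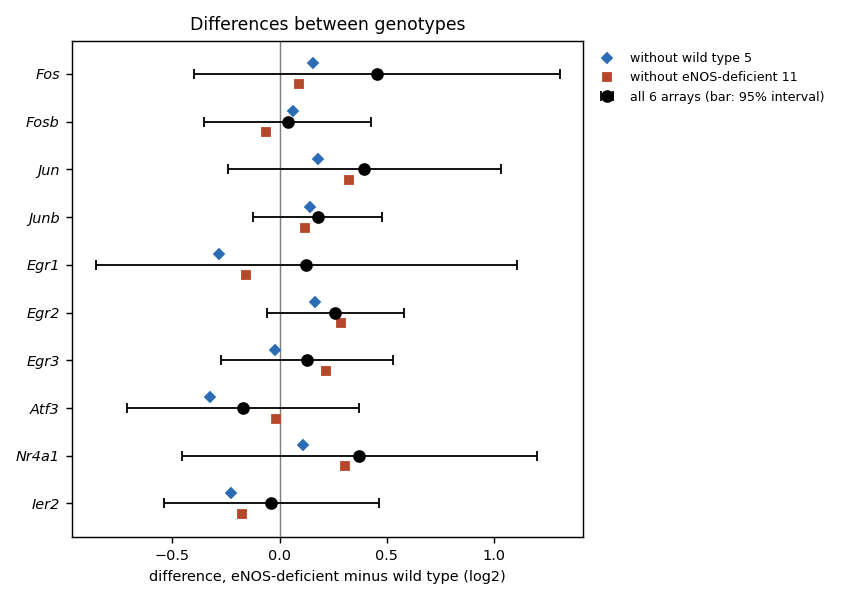
Difference of each immediate early gene, eNOS-deficient minus wild type, on the log2 scale. Black points and bars are the difference and 95% interval with all 6 arrays, blue diamonds the difference without wild type 5 and red squares that without eNOS-deficient 11. All 10 intervals hold 0, and Egr1 changes sign when either array is left out.

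Several of these genes varied widely between arrays of 1 genotype. The residual SD of a gene, its spread between arrays of 1 genotype in the fit, was 0.67 log2 for Egr1, which is higher than in 96.7% of the genes tested. It was 0.58 for Fos (95.4%), 0.56 for Nr4a1 (95%) and 0.41 for Jun (90.3%). Atf3 (0.34) and Ier2 (0.31) also lay above the 80th percentile, which makes 6 of 10 members there. Egr3 (0.22) and Fosb (0.21) lay just above the median gene, 0.19, and Egr2 (0.15) and Junb (0.12) below it. Within 1 genotype or the other, every one of the 10 members had a range between arrays larger than its difference between the genotype means. Over all genes tested the median range was 0.29 log2 in eNOS-deficient and 0.36 in wild-type arrays, beside a median absolute difference of 0.15. The share of all genes was not counted, so this is not read as a trait of the members. These percentiles are a description and carry no test.

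**Figure D3:**
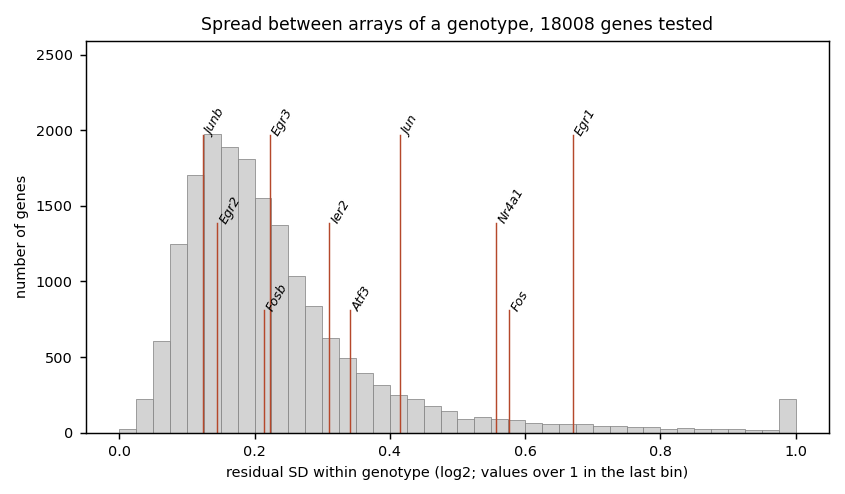
Histogram of the residual SD within genotype (log2) of the 18008 genes tested, with the 10 immediate early genes marked by red lines whose heights only separate the names. Egr1, Fos and Nr4a1 lie in the right tail and Junb and Egr2 left of the median gene, 0.19.

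The members did not share 1 order of arrays. Wild type 5 was the lowest of the 6 arrays for 7 of 10 (Fos, Jun, Egr1, Egr2, Egr3, Nr4a1 and Ier2), beside 32.7% of all genes tested. Among the wild-type arrays alone it was lowest for 8 of 10, beside 47.7% of genes, and wild type 2 was highest for 9 of 10, beside 30.9%. The highest array was eNOS-deficient 11 for 4 members, eNOS-deficient 19 for 3 (Jun, Atf3 and Nr4a1), eNOS-deficient 15 for 2 and wild type 2 for Ier2. Averaged over the 10 members, the deviation from each gene's own mean was 0.25, -0.039 and 0.051 log2 on eNOS-deficient 11, 15 and 19, and 0.16, 0.018 and -0.44 on wild type 2, 3 and 5. The eNOS-deficient arrays thus lay within the span of the wild-type arrays except for eNOS-deficient 11, and the low value of wild type 5 was the farthest from the rest.

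**Figure D4:**
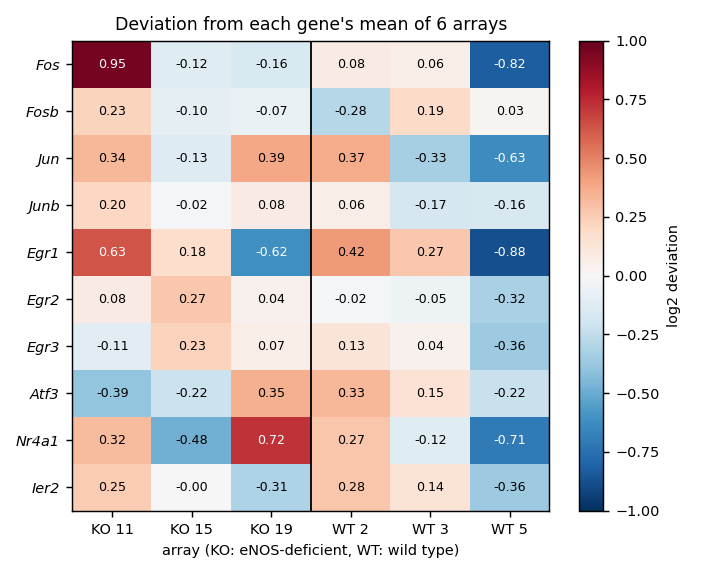
Deviation of each immediate early gene (rows) from its own mean of the 6 arrays, in log2, for eNOS-deficient (KO) and wild-type (WT) arrays. The wild type 5 column is negative for 9 of the 10 genes, while eNOS-deficient 11 and 19 are each high for some members and low for others.

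Some of these arrays also stood apart in other genes. Squamous epithelium markers (8 of 10 listed were tested) averaged 9.33 log2 on wild type 5. The averages of the remaining wild-type arrays, 2 and 3, were 6.27 and 5.29, and those of the eNOS-deficient arrays 4.74 to 5.07. Among them Krt4 stood at 13.33 and Krt13 at 12.18 on wild type 5. All 8 of those markers were highest on wild type 5. Endothelial markers (8 of 8) averaged 8.35 on wild type 5 against 8.99 and 9.07 on the other wild-type arrays and 8.40 to 8.77 on the eNOS-deficient ones. Lymphocyte markers (7 of 8) averaged 6.20 on eNOS-deficient 11 and 7.99 to 8.78 on the other 5 arrays. Skeletal muscle markers (8 of 8) averaged 11.53 on eNOS-deficient 11 and 10.98 on wild type 5, against 9.03 to 10.08 elsewhere. Y-linked genes (3 of 4) averaged 7.76, 4.71 and 8.0 on eNOS-deficient 11, 15 and 19, with 3.47 to 3.63 for wild type. For all 3 of these genes the genotypes did not overlap. Y-linked signal was thus not balanced between the genotypes, and it also differed within the eNOS-deficient group. Array 15 of that group lay nearer to the wild-type arrays than to its own pair, with Kdm5d at 4.24 beside 4.04 on wild type 2. The sex of that sample cannot be read from these values. No wild-type array had a high Y-linked signal, so the part of sex in any difference between genotypes cannot be cleanly told apart from that of genotype. Smooth muscle markers (8 of 8) averaged 9.49 to 9.96 over the arrays. Among them Des was highest on the arrays bright in skeletal muscle markers, 11.56 on eNOS-deficient 11 and 11.30 on wild type 5. Adipocyte markers (8 of 8) were brighter still on every array, averaging 11.06 to 11.37, so the samples held more than vessel wall. Values of the members without single arrays, and with the squamous epithelium or the skeletal muscle mean as a covariate, are given below. The part of the endothelial, lymphocyte and Y-linked differences was not tested. Nos3, the targeted gene, averaged 7.26 ± 0.13 without eNOS and 7.74 ± 0.34 with it (limma adjusted p = 0.399), with wild type 5 at 7.36 inside the eNOS-deficient range.

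The median of the members moved both ways with the arrays and settings used. Without wild type 5 the median of the 10 differences was 0.087, beside 0.15 with all arrays, with 6 positive and 4 negative, and 0 passed in limma. Without both eNOS-deficient 11 and wild type 5, which leaves a pair of arrays per genotype and was chosen after seeing the data, the median was 0.0026 with 5 positive and 5 negative. With the squamous epithelium mean as a covariate it was -0.0025, with the same even split, and with array weights it was 0.032, with 6 positive and 4 negative. Other settings raised it. With the skeletal muscle mean as a covariate it was 0.20, and without wild type 2 it was 0.29, each with 8 positive and 2 negative. Without wild type 3 it was 0.24, and with arrays centred on their medians, which moved the median of all genes to 0.10, it was 0.22, each with 9 positive and 1 negative. In the fit without both arrays 0 members had an unadjusted p under 0.05, beside 15.7% of all genes.

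The wider family was given by lists. Of 12 other AP-1 subunits and partners tested (of 14 listed), 0 passed in limma and 0 had an unadjusted p under 0.05, with a median difference of 0.058. Maf, a large Maf protein that macrophages also express, averaged 7.86 ± 0.31 in eNOS-deficient samples against 7.41 ± 0.22 (difference 0.45, limma adjusted p = 0.435). Fosl2, which takes the place of Fos in longer responses, measured 7.89 ± 0.18 and 7.58 ± 0.16 (0.31, limma adjusted p = 0.469).

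Of 5 EGR and NR4A relatives and EGR corepressors, 0 passed, and 0 had an unadjusted p under 0.05 in limma, with a median of 0.014. Nr4a2, a relative of Nr4a1, measured 8.07, 7.29 and 7.32 on the eNOS-deficient arrays and 7.49, 7.34 and 6.92 on the wild-type arrays. This is the shape seen for Fos, with eNOS-deficient 11 high and wild type 5 low (difference 0.31, limma adjusted p = 0.675). Nr4a1 itself was highest on eNOS-deficient 19. Nab1, which binds EGR proteins and holds them back, differed by -0.14 (limma adjusted p = 0.719).

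Upstream of the members, 16 of 23 listed factors and kinases were tested, among them serum response factor (Srf), its partners and the MAP kinases. None passed in limma and 0 had an unadjusted p under 0.05. The median difference was 0.13. Mapk9, encoding the Jun kinase JNK2, was one of 3 of the 16 whose genotypes did not overlap (over all genes tested, 19.5%), at 7.89 ± 0.10 against 7.62 ± 0.10 (difference 0.27, limma adjusted p = 0.447). Mrtfa, a coactivator of serum response factor that answers to actin, differed by 0.34 (limma adjusted p = 0.466).

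Downstream feedback genes, which switch MAP kinases off or degrade immediate early mRNAs, showed the low values of wild type 5 as well. Of 18 tested, 13 had their lowest value on that array, beside 32.7% of all genes, and the list deviated by -0.42 log2 there, against 0.13 and 0.17 on wild type 2 and 3. The trait was neither shared by all related lists nor particular to them. Wild type 5 was lowest for 9 of 16 upstream factors and kinases but for 15 of 40 other immediate early response genes (37.5%). It was lowest for 5 of 8 endothelial markers and for 3 of 12 heat shock genes. Between genotypes 0 of 18 passed in limma and 0 had an unadjusted p under 0.05, with a median of 0.094. Dusp10, a phosphatase of JNK and p38, differed by 0.44 (standard error 0.23, limma adjusted p = 0.503), and Spred1, an inhibitor of the Ras pathway, by 0.23 (0.529).

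Other immediate early response genes, 40 tested of 42 listed, split evenly, with 19 positive and 21 negative differences, a median of -0.020 and 0 past in limma. Only 1 of the 40 had an unadjusted p under 0.05, a smaller share than the 11.6% of all genes. That gene was Rgs2, which shortens the G-protein signals that contract smooth muscle and is a known target of the nitric oxide and cyclic GMP pathway. It measured 10.02, 10.44 and 11.04 on the eNOS-deficient arrays and 9.84, 9.96 and 9.77 on the wild-type arrays, a difference of 0.64 (standard error 0.25, unadjusted p = 0.0332 and adjusted p = 0.390 in limma). Its genotypes did not overlap, by a margin of 0.062 log2.

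Genes described as AP-1 or EGR1 targets in vessels had larger differences than the factors, with a median of 0.32 beside 0.15, which was not tested. Of 18 tested (of 22 listed), 0 passed in limma, while 7 had an unadjusted p under 0.05, all higher in eNOS-deficient aorta (over all genes tested, 7.86%), and 9 had genotypes that did not overlap, all on the higher side (over all genes, 13.1%). The list was chosen with earlier results of these data known, and several of its genes are matrix genes, so the counts are a description. Timp1, an inhibitor of metalloproteinases, was at 6.89, 6.72 and 6.82 against 5.39, 5.64 and 5.81 (difference 1.20, limma adjusted p = 0.10). The matrix-degrading enzymes Mmp3 and Mmp9 differed by 1.37 and 0.77 (limma adjusted p = 0.208 for each), and the crosslinking enzyme Lox by 0.82 (limma adjusted p = 0.289). On wild type 5 these genes were not uniformly low, since Timp1 and Mmp3 had their highest wild-type values there while Mmp9 and Lox had their lowest. Macrophage markers (8 of 8) were higher on the eNOS-deficient arrays too, averaging 8.18 to 8.54 against 7.29 to 7.69, and fibroblast markers (8 of 8) averaged 9.49 to 9.81 against 8.89 to 9.42. Their part in the target list was not tested.

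**Figure D5:**
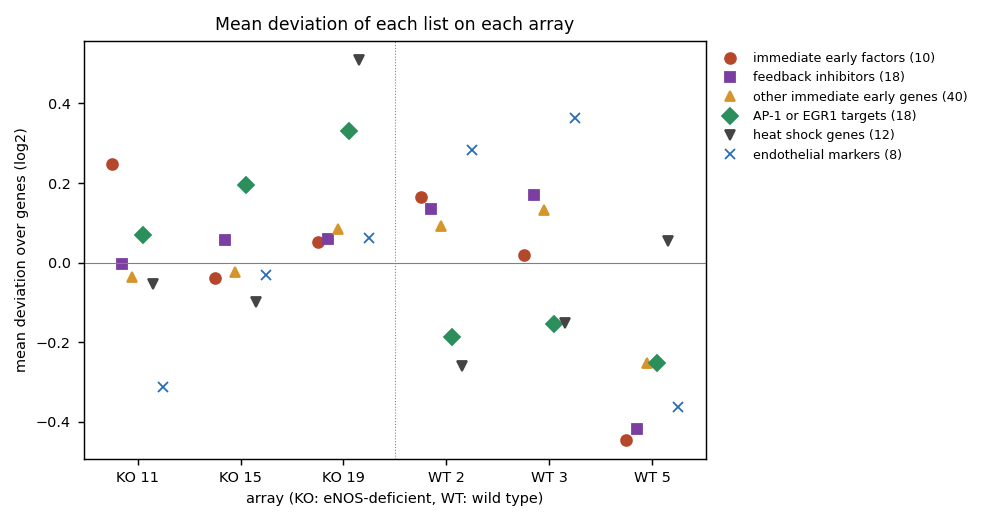
Mean deviation, in log2, of each gene list from its genes' own means of the 6 arrays, for each eNOS-deficient (KO) and wild-type (WT) array; numbers in brackets are genes tested. Immediate early factors and feedback inhibitors are lowest on wild type 5 (-0.44 and -0.42), and AP-1 or EGR1 targets lie above 0 on the 3 eNOS-deficient arrays and below 0 on the 3 wild-type arrays.

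The genes whose profile over the 6 arrays came closest to the mean profile of the members, by the root mean square difference of centred log2 values, were Zfp768 (0.022 log2), Brf2 (0.029), Csgalnact1 (0.037), Kank1 (0.042), Pomk (0.042) and Lamb2 (0.044). The median gene lay at 0.26. Each was lowest on wild type 5 and highest on eNOS-deficient 11, as is the mean profile by which they were picked, so this follows from the choice. Among the members only Fos and Egr1 had both extremes on those arrays. Of the members, Junb lay closest to their own mean profile (0.15) and Egr1 farthest (0.40), farther than 82.1% of all genes tested.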

How the data were processed

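Total RNA from 3 eNOS-deficient and 3 wild-type aorta samples was hybridised to 1 Affymetrix array each. The deposited values are log2 probe set signals that the authors made, per the submitters' processing notes, with RMA in Affymetrix Expression Console 1.3.1. They were used as deposited, and probe-level values were not used here. RMA includes quantile normalization, which reduces global differences between arrays. Some remained in the deposited values, whose medians over probe sets ran from 5.55 log2 on eNOS-deficient 11 to 5.68 on wild type 5. Of 41345 probe sets, 23525 list 1 gene symbol, 1810 several and 16010 none. The brightest probe set of each of 22184 genes was kept, and genes under the 25th percentile of probe set means (4.379 log2) were left out, which left 18008. Arrays correlated with r from 0.947 to 0.983 across probe sets, and no pair shared over 0.109% of its values, so none was a copy. The number of arrays limits the precision (median standard error 0.156 log2).

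Genotypes were compared with the limma package (3.58.1, under R 4.3.3; lmFit, then eBayes, two-sided, no covariate), with Benjamini-Hochberg adjustment over 18008 genes at 0.05. The fit was tested on simulated data, with normal noise at each gene's own residual SD. It recovered 12% of 50 changes of 1.5-fold, 66% of those of 2-fold, 88% of 4-fold and 96% of 8-fold. Small changes would thus mostly be missed. Alternatives were the dim filter, variance model, probe set mean, scaling, array weights, marker covariates, threshold and each array left out; the fit without both eNOS-deficient 11 and wild type 5 was added after seeing the data. The members and gene lists were chosen with earlier results of these data known. Named genes are the members, Nos3, up to 4 genes of each other list with an unadjusted p under 0.05 and no overlap (otherwise the 2 smallest p), and the 6 nearest profiles without predicted genes; single markers and heat shock genes were chosen after their values were seen. Figures used Python 3.11.15 and matplotlib 3.10.9.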

Additional observations from a re-analysis of the deposited data

How the results depend on the processing

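No member passed an adjusted p under 0.05 in limma, or one under 0.1, under any alternative run. The median of the members' differences, 0.15 in the main fit, ran from -0.0025 to 0.29 over the alternatives. Each move was smaller than the within-genotype SD of the members' mean (0.25 log2). That SD exceeds the median itself, so it cannot show that the median was stable. Jun, Junb, Egr2 and Atf3 kept their sign throughout. Without eNOS-deficient 11 the sign turned for Egr1 (-0.16) and Fosb (-0.064), and without eNOS-deficient 19 for Ier2 (0.11). Without wild type 2 it turned for Fosb (-0.093) and Ier2 (0.092), without wild type 3 for Ier2 (0.022), and without wild type 5 for Egr1 (-0.28) and Egr3 (-0.022). Without eNOS-deficient 11 and wild type 5 together it turned for Fos (-0.21), Fosb (-0.039) and Egr1 (-0.56). Array weights turned Egr1 (-0.14) and Nr4a1 (-0.15), and the squamous epithelium covariate turned Egr1 (-0.49), Egr3 (-0.12) and Nr4a1 (-0.017). Ier2 was positive with arrays centred on their medians (0.028) and after repeated quantile normalization (0.051). Leaving out single arrays gave ranges of -0.28 to 0.46 for Egr1, -0.022 to 0.23 for Egr3, -0.093 to 0.15 for Fosb and -0.23 to 0.11 for Ier2. The cause was not tested.

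Over all genes, 5 were called (2 higher, 3 lower). Leaving out single arrays gave 0 to 6, with 0 when array 11 or 19 of the eNOS-deficient or array 2 or 3 of the wild-type group was left out, and 2 without wild type 5. There were 2 with the mean of probe sets, with repeated quantile normalization (2 higher, 0 lower), with the squamous epithelium covariate or without both doubted arrays. There were 3 without the dim filter, 1 with the skeletal muscle covariate, 8 at an adjusted p under 0.10 and 119 with array weights (94 higher, 25 lower). Above the 50th percentile 9 members were tested, since Ier2 fell below it. No paired analysis was possible because the genotypes share no replicate number.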

Other observations

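Heat shock genes, another family that answers acute stress within minutes to hours, did not follow the immediate early factors from array to array. Of 12 tested, 10 had their highest value on eNOS-deficient 19, beside 19.3% of all genes tested, and the list deviated by 0.51 log2 there, where the immediate early factors deviated by 0.051. Hspa1b, an inducible chaperone of the HSP70 family, measured 10.04 on eNOS-deficient 19, 8.98 on wild type 5, and 7.74 to 7.99 on the other 4 arrays. Hspa1a, its near-identical neighbour whose signal may be shared, stood at 8.91 and 8.12 on the same arrays and at 6.92 to 7.66 elsewhere. Wild type 5, lowest for 7 of the 10 immediate early factors, was thus the second highest array for both. Between genotypes the difference was positive for all 12 (over all genes tested, 56.6%), with a median of 0.16 log2. In limma 0 of 12 passed, and 1 of the 12 had an unadjusted p under 0.05, beside 11.6% of all genes. It was Bag3, a cochaperone of HSP70 (difference 0.43, limma adjusted p = 0.430). Hspb1, a small heat shock protein of smooth muscle, differed by 0.30 (limma adjusted p = 0.513).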
